A study of Homo sapiens with 6 samples.

Results

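Transcripts of 10 receptors and surface proteins that mark macrophages were followed through the conversion of leukaemic B cells into macrophages, with and without the genome architecture protein CTCF. The genes were chosen by symbol from the 30017 genes of the count table and comprise the scavenger receptors *CD163*, *MSR1*, *CD36*, *MARCO*, *STAB1* and *SCARB1*, the mannose receptor *MRC1*, the endolysosomal glycoprotein *CD68*, the lipopolysaccharide co-receptor *CD14* and the surface lectin *CD93*. All 3 groups were made from BLaER1-CTCF-mAID cells, a subclone of a human B cell leukaemia line that carries an inducible CEBPA transgene and a degron tag on CTCF. The groups were uninduced cells (0 h), cells after 96 h of conversion with 17β-estradiol, IL-3 and CSF-1 (96 h control), and cells converted for 96 h in the presence of the auxin indole-3-acetic acid (IAA), which triggers degradation of the tagged CTCF (96 h CTCF-depleted). Each group had 2 biological replicates of 1 clonal line, and no line without the degron was treated with IAA here, so that effects of IAA and of the loss of CTCF cannot be told apart.

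Scavenger receptors are membrane proteins that bind modified lipoproteins, dying cells, microbial surfaces and other polyanionic ligands and carry them into the endocytic pathway. Resident and anti-inflammatory macrophages are known for CD163, which takes up haemoglobin-haptoglobin complexes, for the mannose receptor and for stabilin-1, while CD14 hands lipopolysaccharide to Toll-like receptor 4. CTCF is a DNA-binding protein that stops loop extrusion by cohesin and so shapes contacts between promoters and enhancers.

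The libraries held 9273470 to 12718780 counts, and levels are given as CPM, the counts of a gene scaled to a common library size by the TMM method. The labelled cell identities were checked on marker lists. All 8 B cell markers were called lower in the 96 h control than at 0 h, where 22.9% of all genes tested were. Of these markers, *MS4A1*, which encodes CD20, had 129 and 178 counts at 0 h and 7 and 6 in the control. Of 16 further macrophage markers 13 were tested, and these 13 were called higher, where 25.4% of all genes tested were. For *SIGLEC1*, *VSIG4*, *TREM2* and *CD209*, with 0 counts in both 0 h libraries, the filter on low counts fixed that direction. The list was led in level by the lysozyme gene *LYZ* with 3 and 6 counts at 0 h and 52779 and 47474 in the control. *LYZ* also passed that filter only through the 96 h libraries. With at least 10 counts required in every library, 4 of these markers were tested and 4 were called higher. Other blood lineages were not fully silent in the converted cells. The summed level of 6 granulocyte markers was 0 to 0.38 CPM at 0 h, 22.7 to 25.4 in the control and 22.9 to 24.2 after CTCF depletion, with *CEACAM8* and *LTF* at 2 counts or fewer in every library. The summed level of 6 T and NK cell markers was 2.58 to 2.85 CPM at 0 h, 38.2 to 38.6 in the control and 32.5 to 34.7 after depletion, with the T cell receptor component *CD3D* at 0 in all 6 libraries. The summed level of 6 dendritic cell markers went the other way, at 107 CPM in both 0 h libraries, 4.68 and 5.37 in the control and 7.50 and 6.26 after depletion. Most of this was *LAMP3*, a marker of mature dendritic cells, with 1015 and 1400 counts at 0 h, 7 and 4 in the control and 45 and 36 after depletion. Of the 3 dendritic cell markers tested, 1 was called higher and 2 lower in the control than at 0 h. After depletion 1 of the 3 was called higher and 1 lower with edgeR, and 1 higher and 0 lower with DESeq2. The median log2 fold change was 1.51, which among 3 genes is the value of a single gene. Among all genes tested, 5.41% were called higher and 7.03% lower after depletion. *CLEC9A* had at most 2 counts in any library. Summed B cell markers were at 389 to 395 CPM in the control and 341 to 357 after depletion, from 2498 to 2509 at 0 h. The part of these lineages in the results was not tested, and in bulk RNA a smaller number of cells of one type and less RNA per cell cannot be told apart.

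Before conversion, only *SCARB1* was well expressed. This receptor for high-density lipoprotein, which many cell types use for cholesterol uptake, had 140.1 and 138.3 CPM at 0 h. *CD93*, a receptor linked to adhesion and clearance of dying cells, had 4.85 and 4.13 CPM, and *CD68*, a heavily glycosylated protein of late endosomes, had 2.68 and 2.33 CPM. The other 7 genes had at most 5 counts in either 0 h library, and *CD163*, *MSR1*, *CD36* and *MARCO* had 0 counts in both. These 7 genes passed the filter on low counts only through the 96 h libraries and therefore had to differ between the time points. In all, the 10 genes took 0.0155% and 0.0153% of the counts at 0 h, 0.168% and 0.166% in the control and 0.154% and 0.153% after CTCF depletion.

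After 96 h without IAA, 9 of the 10 genes were called higher than at 0 h, that is, with an adjusted p under 0.01 and an absolute log2 fold change above 0.6 in edgeR's quasi-likelihood test. Among all genes tested, 25.4% were called higher and 22.9% lower. *STAB1*, an endocytic receptor for extracellular matrix fragments and acetylated lipoproteins, went from 3 and 2 counts to 13222 and 12547, a ratio of 5363 (95% counting interval 2298 to 16519). *MRC1*, a C-type lectin that binds mannose-rich glycans, went from 3 and 5 counts to 402 and 376, a ratio of 101 (51.1 to 235). *CD14* went from 0 and 4 counts to 115 and 139, a ratio of 66.1 (25.5 to 244). The size for *CD14* rests on the few 0 h counts, as the ratio was 38.3 (14.8 to 142) to 0 h replicate 2 alone and at least 37.2 to 0 h replicate 1 alone, which had 0 counts. These intervals cover counting error only. Against a floor of 3 counts in each 0 h library, the collagen-like class A receptor *MSR1* was at least 336-fold higher with 1019 and 969 counts, and its relative *MARCO* at least 9.10-fold higher with 31 and 23 counts. *CD163* was at least 197-fold higher with 592 and 574 counts, and *CD36*, a receptor for oxidised lipoproteins and long-chain fatty acids, at least 177-fold higher with 516 and 529 counts. None of these groups overlapped. Of the genes with more counts at 0 h, *CD68* rose by 4.84 (SE 0.13) and *CD93* by 3.88 (SE 0.12) on the log2 scale, with adjusted p-values of 2.53e-39 and 1.47e-36 from edgeR. *SCARB1* was at 198.3 and 189.2 CPM in the control, above both 0 h libraries, but its log2 fold change of 0.48 (SE 0.05, edgeR adjusted p = 6.04e-12) did not reach the fold threshold.

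**Figure D1:**
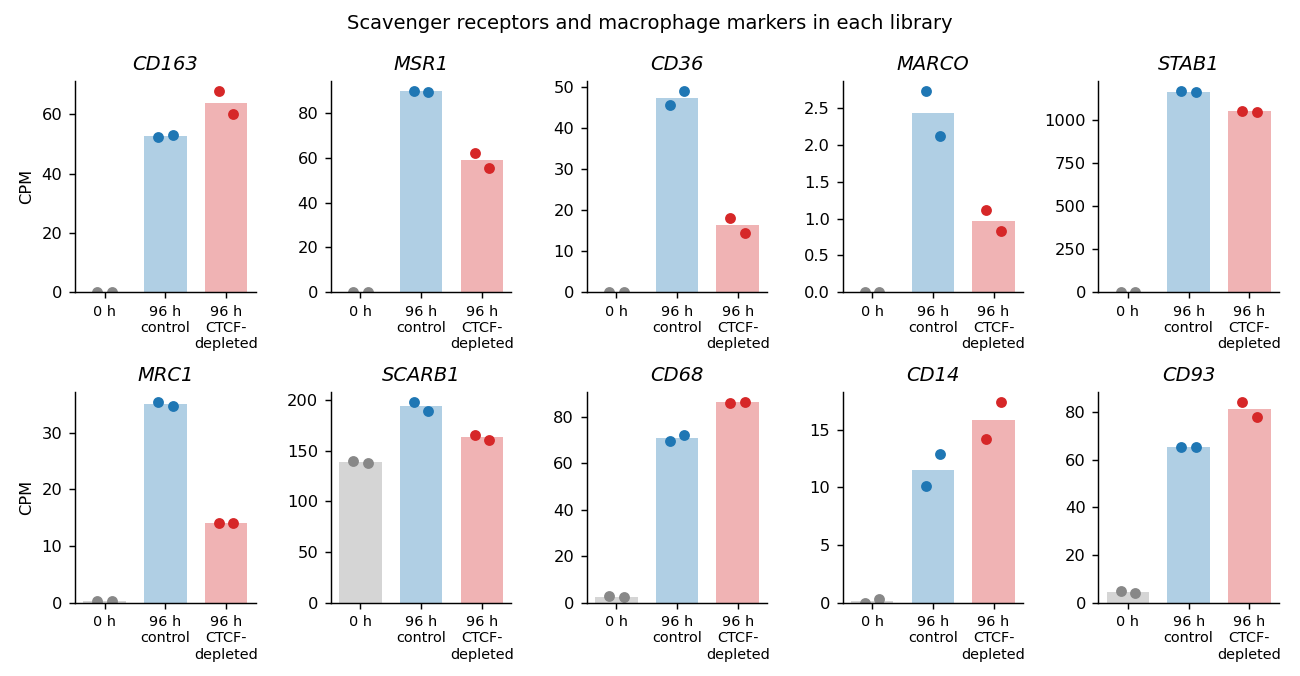
Level of each of the 10 genes in every library, in CPM with TMM-scaled library sizes. Points are the 2 replicates and bars their mean; each panel has its own axis from 0. *CD36*, *MRC1* and *MARCO* lost most of their control level after CTCF depletion, whereas *CD163*, *CD68*, *CD14* and *CD93* had both depleted libraries above both control libraries.

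Levels of different genes were compared per kilobase of annotated exons. In the control, *STAB1* stood first with a mean of 110.0 CPM per kb, followed by *CD68* with 32.8, *SCARB1* with 13.0, *MSR1* with 11.5, *CD93* with 9.81 and *CD163* with 9.06. *CD14* with 6.99 and *MRC1* with 6.78 overlapped between libraries, and *CD36* with 4.34 and *MARCO* with 1.19 stood last. All other neighbours in this order had ranges that did not overlap. *STAB1* alone made up 53.9% and 53.2% of the summed level of the 10 genes per kb. The order in the middle depends on the length used, since the annotated exons of *SCARB1* add up to 14887 bases and those of *CD36* to 10880, but their MANE Select transcripts to 3405 and 4598. With MANE Select lengths, *SCARB1* (56.9 CPM per kb) stood above *CD68* (41.7), and *CD36* (10.3) came sixth in place of ninth, above *CD93*, *CD14* and *MRC1*. *STAB1* was first and *MARCO* last with each of the 3 lengths tried. After CTCF depletion *STAB1* (99.1 CPM per kb) and *CD68* (39.8) kept the first places. *CD93* (12.2), *CD163* (11.0) and *SCARB1* (11.0) came next, of which the last 2 overlapped, then *CD14* (9.59) and *MSR1* (7.55). *MRC1* at 2.70, *CD36* at 1.49 and *MARCO* at 0.47 CPM per kb came last.

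**Figure D2:**
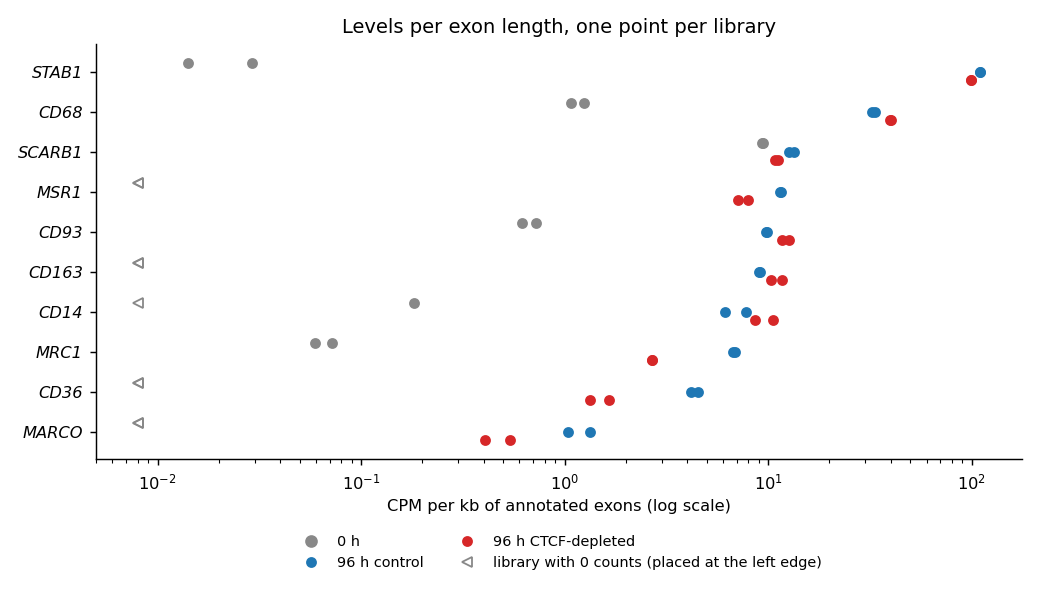
Level per kilobase of annotated exons for each gene, on a logarithmic axis, with 1 point per library; open triangles stand for libraries with 0 counts. *STAB1* was highest at 96 h, with and without CTCF depletion, and *SCARB1* was highest at 0 h.

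RefSeq promoter windows (GRCh38.p14, 250 bases before and 50 after a transcript start) were given for 6 of the 10 genes, as 11 windows of which 6 belong to *CD36*. They were searched on both strands for letters bound by factors of this system: TTGCNNAA for C/EBP proteins, the family of the CEBPA transgene, GAGGAAGT or AGAGGAA for PU.1, TGACTCA or TGAGTCA for AP-1, AGGGGGC or AGATGGC from the core of the CTCF motif, and TATAAA for the TATA box. The AP-1 spellings are reverse complements of each other, and those of PU.1 can overlap. The 3 windows below are shown because they hold the C/EBP letters (*CD163* and *CD68*) or the CTCF letters (*CD14*). Each is written in the direction of the gene, and capitals mark the matched letters. The window of *CD163* lies at chr12:7503728-7504027 on the minus strand, that of *CD68* at chr17:7579388-7579687 on the plus strand and that of *CD14* at chr5:140633126-140633425 on the minus strand.
CD163: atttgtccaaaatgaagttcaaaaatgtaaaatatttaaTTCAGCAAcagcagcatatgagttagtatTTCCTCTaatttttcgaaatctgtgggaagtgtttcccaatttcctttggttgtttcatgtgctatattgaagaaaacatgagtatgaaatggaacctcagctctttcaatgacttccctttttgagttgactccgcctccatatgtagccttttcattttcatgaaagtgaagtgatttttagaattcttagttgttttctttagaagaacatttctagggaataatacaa
CD68: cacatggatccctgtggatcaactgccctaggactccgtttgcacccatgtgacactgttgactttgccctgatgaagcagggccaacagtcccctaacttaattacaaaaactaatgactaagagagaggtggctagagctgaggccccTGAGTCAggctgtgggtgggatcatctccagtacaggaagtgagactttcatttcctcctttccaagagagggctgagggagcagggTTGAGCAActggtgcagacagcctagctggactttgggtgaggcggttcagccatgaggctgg
CD14: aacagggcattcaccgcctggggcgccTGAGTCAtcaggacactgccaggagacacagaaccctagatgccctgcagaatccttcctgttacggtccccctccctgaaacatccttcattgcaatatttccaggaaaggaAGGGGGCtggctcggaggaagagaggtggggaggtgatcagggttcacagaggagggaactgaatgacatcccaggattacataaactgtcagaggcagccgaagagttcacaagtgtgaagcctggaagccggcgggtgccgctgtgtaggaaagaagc

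The *CD163* window held C/EBP letters from position -211 and PU.1 letters from position -182 relative to the start. In *CD68*, AP-1 letters began at -100 and C/EBP letters at -13. In *CD14*, AP-1 letters began at -223 and the CTCF letters AGGGGGC at -110. Of the *CD36* windows, 2 overlapping ones held the same PU.1 letters, 1 held AP-1 and TATA letters, 1 held TATA letters alone and 2 held none, and the windows of *MARCO* and *STAB1* held none of these motifs. Over 35116 promoter windows of this length, 10.5% held the C/EBP letters, 11.2% PU.1, 4.95% AP-1, 19.1% CTCF and 11.5% TATA letters. A match describes the letters only, and binding at these sites was not analysed here.

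After CTCF depletion, edgeR called 4 of the 10 genes lower, *CD36*, *MRC1*, *MARCO* and *MSR1*. DESeq2 called 2 lower, *CD36* and *MRC1*, and neither tool called a gene higher. Without a call, *SCARB1* and *STAB1* had estimates below 0 and 4 genes had estimates above 0, each with an unadjusted edgeR p under 0.05. *MARCO* passed the filter on low counts only through its control libraries, so that its call depended on a high control level. Among all genes tested, 7.03% were called lower and 5.41% higher. The median log2 fold change was -0.20 over the 10 genes and -0.03 over all genes tested, and the median absolute value was 0.38 against 0.23. The genes did not move as a block, as 6 estimates were below 0 and 4 above. Because the control and depleted cells were both converted for 96 h, these differences are set against the same duration of conversion. The cells with IAA still had 9 of the 10 genes called higher than at 0 h, where 27.2% of all genes tested were called higher and 25.2% lower. That comparison uses the same 0 h libraries as the comparison for the control.

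*CD36* had the largest estimate of the 10. Its levels were 45.5 and 49.0 CPM in the control and 18.1 and 14.5 after CTCF depletion. Both depleted libraries were far below both control libraries, at 34.4% of the control by the fitted fold change. The log2 fold change was -1.54 (SE 0.11, edgeR adjusted p = 1.34e-17). Depleted cells still had at least 60.8-fold more *CD36* than 0 h cells, against at least 177-fold in the control. Its relative of the same receptor family, *SCARB1*, was at 165.5 and 160.8 CPM after depletion, below both control libraries and above both 0 h libraries. The log2 fold change of *SCARB1* was -0.25 (SE 0.05, edgeR adjusted p = 9.34e-05), within the fold threshold.

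*MRC1* was at 35.5 and 34.8 CPM in the control and at 14.0 in each depleted library. The groups were well separated and the replicates of each group lay close together. The log2 fold change was -1.33 (SE 0.12, edgeR adjusted p = 3.95e-14), leaving 39.8% of the control level. Against 0 h, the ratio of *MRC1* was 40.3 (counting interval 20.2 to 94.1) with depletion and 101 without it. *CD36* and *MRC1* were called lower under each alternative in which they were tested, with log2 fold changes of -1.67 to -1.36 and of -1.33 to -1.28.

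The collagen-like receptors gave less secure calls. *MSR1* was at 89.9 and 89.7 CPM in the control and 62.4 and 55.5 after depletion, without overlap. Its log2 fold change of -0.61 (SE 0.08, edgeR adjusted p = 1.36e-09) was just past the fold threshold. It fell short of that threshold with DESeq2 and with RLE scaling (both -0.59), with no filter on low counts (-0.58), with scaling by library totals (-0.57), in a fit of only the 4 libraries compared (-0.57), without control replicate 1 (-0.57) or 2 (-0.58) and without CTCF-depleted replicate 2 (-0.50), while its adjusted p stayed at 3.77e-05 or below under all alternatives run. *MARCO*, which binds bacteria and inhaled particles, was detected with 31 and 23 counts in the control and 12 and 9 after depletion. Its log2 fold change of -1.32 (SE 0.42) had an edgeR adjusted p of 0.00961, next to the threshold. With DESeq2 the adjusted p of *MARCO* was 0.145 at a log2 fold change of -1.31, and with edgeR it was 0.0108 with RLE scaling, 0.0147 with no filter on low counts, 0.0123 with scaling by library totals and 0.0132 with a replicate block. The call was also lost whichever of the 4 libraries was left out, with edgeR adjusted p-values of 0.154 and 0.0375 without control replicates 1 and 2 and of 0.0479 and 0.141 without CTCF-depleted replicates 1 and 2.

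*STAB1* stayed close to its control level. It had 1167 and 1162 CPM in the control and 1050 and 1047 after CTCF depletion, and the replicates of each group differed by less than the groups did. The log2 fold change of -0.15 (SE 0.04, edgeR adjusted p = 0.00440) corresponds to 90.1% of the control and was within the fold threshold.

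The 4 genes with estimates above 0 had both depleted libraries above both control libraries, and none of them was called. *CD163* was at 52.2 and 53.2 CPM in the control and 67.9 and 60.0 after depletion. *CD68* was at 69.7 and 72.3 in the control and 85.9 and 86.4 after depletion, and *CD93* at 65.5 and 65.6 against 84.4 and 78.1. The replicates of *CD68* lay closest together after depletion. Their log2 fold changes were 0.28 for *CD163* (SE 0.08, edgeR adjusted p = 0.00241), 0.28 for *CD68* (SE 0.07, edgeR adjusted p = 0.00144) and 0.31 for *CD93* (SE 0.07, edgeR adjusted p = 5.28e-04), all below the fold threshold. *CD14* was at 10.1 and 12.9 CPM in the control and 14.2 and 17.4 after depletion, the widest spread between replicates of the 4 relative to the mean. Its log2 fold change was 0.46 (SE 0.16, edgeR adjusted p = 0.0197), with a 95% interval of 0.13 to 0.78. Without CTCF-depleted replicate 1 it was called higher, at 0.64 (edgeR adjusted p = 0.00399), and over all alternatives its adjusted p ranged from 0.00275 to 0.243.

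**Figure D3:**
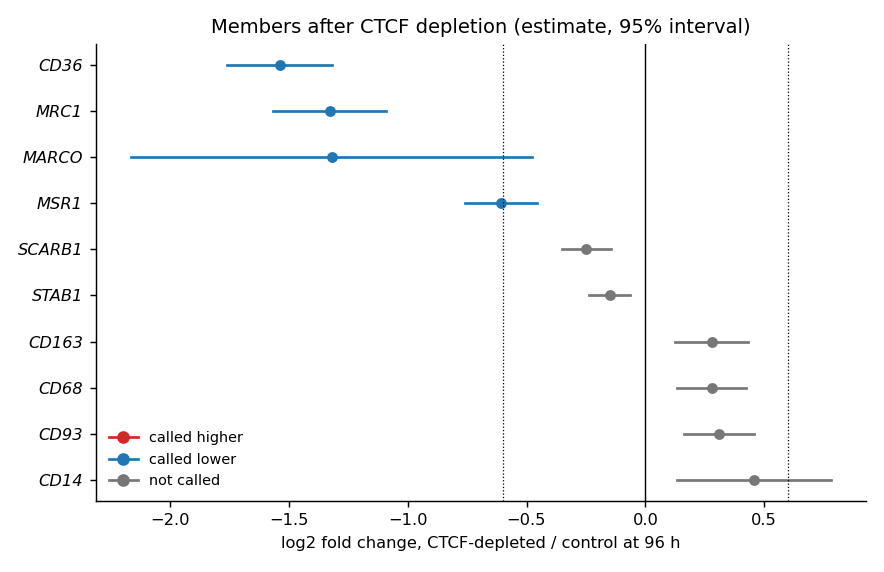
Log2 fold change of each gene between CTCF-depleted and control cells at 96 h, with its 95% interval from the edgeR fit; dotted lines mark the fold threshold of 0.6 in each direction. *CD36* and *MRC1* lie wholly beyond the threshold, the intervals of *MARCO* and *MSR1* cross it, and those of *CD163*, *CD68* and *CD93* lie between 0 and the threshold.

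A list of 17 other scavenger receptors was examined in the same fit, of which 13 were tested and *SCARA5*, *STAB2* and *LRP2* had at most 1 count in any library. During conversion without IAA, 9 rose, 1 fell and 3 were not called, where 25.4% of all genes tested were called higher and 22.9% lower. *OLR1*, *CLEC7A* and *CXCL16* had at most 2 counts in either 0 h library. They passed the filter on low counts only through the 96 h libraries and could only rise. With CTCF depletion, 4 were called lower, 1 higher and 8 not called, where 7.03% of all genes tested were called lower and 5.41% higher. The median log2 fold change was -0.19, against -0.03 over all genes tested. The oxidised lipoprotein receptor *OLR1* fell from 636 and 601 counts to 316 and 250 (log2 fold change -1.10, SE 0.09). *COLEC12*, a collectin with scavenger activity, fell from 2285 and 2248 counts to 1126 and 1153 (-0.96, SE 0.06). *CXCL16*, a membrane-bound chemokine that binds oxidised lipoprotein, was at 55 and 56 counts in the control and 22 and 24 after depletion (-1.24, SE 0.29), a call that was lost with DESeq2 (adjusted p = 0.0294) and without control replicate 1 (0.0114), control replicate 2 (0.0201) or CTCF-depleted replicate 1 (0.0167). In contrast, *CD163L1*, the closest relative of *CD163*, rose from 100 and 98 counts to 227 and 251. None of these pairs of groups overlapped. The endocytic receptor *LRP1* gave -0.01 (SE 0.05) and the most abundant gene of the list, the hyaluronan receptor *CD44*, gave 0.13 (SE 0.04), and neither passed the thresholds.

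Of 11 genes of the CD14 signalling pathway 9 were tested. In the conversion, *TLR4*, its co-receptor *LY96*, the adaptor *MYD88* and *TLR2* rose and the other 5 were not called. Among all genes tested, 25.4% were called higher in that comparison. After CTCF depletion, *TLR2*, the Toll-like receptor for bacterial lipopeptides, fell from 102 and 89 counts to 51 and 53 (log2 fold change -0.84, SE 0.21, edgeR adjusted p = 6.79e-04), and the other 8 tested were not called. At an edgeR adjusted p under 0.05 with no fold threshold, 4 of the 9 were higher, among them *TLR4* at 0.37 (SE 0.05). At that setting 2 were lower, *TLR2* among them. The call of *TLR2* was lost with DESeq2 (adjusted p = 0.0233), without control replicate 1 (0.0299) and without CTCF-depleted replicate 1 (0.0126). The median of this list was 0.17, against -0.03 over all genes tested, of which 7.03% were called lower and 5.41% higher. Among 6 relatives of the mannose receptor and of CD93, 5 were tested. *MRC2*, *LY75*, *THBD* and *CD248* rose and *CLEC14A* fell in the conversion, where 25.4% of all genes tested were called higher and 22.9% lower. *THBD*, at 0 CPM at 0 h, passed the filter on low counts only through the 96 h libraries and could only rise. None of the 5 was called after CTCF depletion by edgeR or DESeq2, with a median of -0.34 and an unadjusted edgeR p under 0.05 for 4 of them.

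The 13 tested macrophage markers outside the 10 genes moved both ways after CTCF depletion, with 4 called higher, 3 called lower and a median of -0.12. Among all genes tested, 5.41% were called higher and 7.03% lower, with a median of -0.03. The complement receptor *VSIG4* fell from 299 and 246 counts to 51 and 40 (log2 fold change -2.55, SE 0.17), and the lectin *CD209* from 22 and 22 to 8 and 7 (-1.51, SE 0.47). *CD209* passed the filter on low counts only through its control libraries, so that its call depended on a high control level. *ITGAM*, which encodes the integrin CD11b, rose from 1362 and 1468 counts to 3125 and 3039 (1.15, SE 0.06), and *ADGRE1* (listed as *EMR1*), the human counterpart of the mouse marker F4/80, from 95 and 87 to 190 and 186 (1.08, SE 0.16). All 4 had groups that did not overlap. With DESeq2, 4 were called higher and 1 lower, and the call of *CD209* was lost there (adjusted p = 0.136), with a replicate block (0.0122), with scaling by library totals (0.0102), with no filter on low counts (0.0199) and whichever of the 4 libraries was left out (0.0633 to 0.101).

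**Figure D4:**
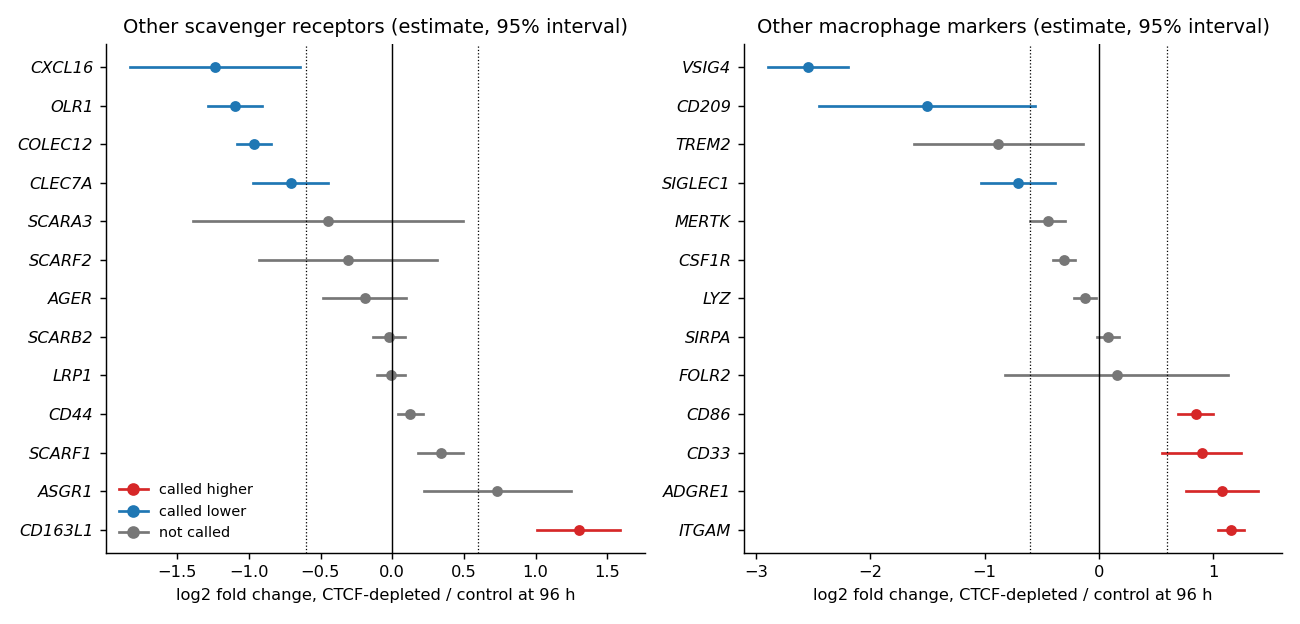
Log2 fold change between CTCF-depleted and control cells at 96 h for the 13 tested genes in each of 2 lists, other scavenger receptors and other macrophage markers, with 95% intervals from the edgeR fit; dotted lines mark the fold threshold of 0.6. Both lists hold genes called in each direction, from *VSIG4* at -2.55 to *CD163L1* at 1.30.

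Since CTCF acts on chromosomal neighbourhoods, genes within 200 kb of each of the 10 were examined by position (GENCODE release 44, hg38). Of 58 neighbours tested, 2 were called higher and 2 lower after CTCF depletion, 6.90% for both directions together. Among all genes tested, 5.41% were called higher and 7.03% lower. *MSR1* and *MARCO* had no tested neighbour in this window. *TMCO6*, a little studied transmembrane protein gene, begins 5735 bases upstream of *CD14* (chr5:140631728-140633700, minus strand) and is read in the opposite direction. It was at 17.7 ± 0.35 CPM (SD, n = 2) at 0 h, 46.0 ± 1.76 in the control and 133 ± 7.62 after depletion. The log2 fold change with depletion was 1.53 (SE 0.07, edgeR adjusted p = 9.90e-25), beside 0.46 for *CD14*. The annotated body of *TMCO6* lies within that of *NDUFA2* on the other strand, which gave 0.34 (SE 0.12) and was not called. Exon overlap of this pair was not examined and the strand setting of the counting is not known, so that reads in any shared stretch are uncertain. *CD163L1* overlaps the end of *CD163* (chr12:7470811-7503893, minus strand) on the same strand and shares 38 exonic bases with it, so that reads there could be assigned to either gene. It was at 7.84 ± 1.02 CPM (SD, n = 2) at 0 h, 8.95 ± 0.18 in the control and 22.1 ± 1.49 after depletion. Its log2 fold change was 1.30 (SE 0.14, edgeR adjusted p = 5.02e-11), and it was the only tested neighbour of *CD163*.

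The semaphorin gene *SEMA3G*, 50235 bases upstream of *STAB1* (chr3:52495338-52524495, plus strand), was at 0 CPM at 0 h, 11.9 ± 0.81 (SD, n = 2) in the control and 4.85 ± 0.61 after depletion (log2 fold change -1.29, SE 0.20, edgeR adjusted p = 2.52e-07). *PTPLA*, which encodes an enzyme of very long chain fatty acid synthesis, lies 191974 bases from *MRC1* (chr10:17809348-17911164, plus strand) and was at 13.0 ± 0.71 CPM (SD, n = 2) in the control and 7.20 ± 0.76 after depletion (-0.85, SE 0.17, edgeR adjusted p = 3.10e-05). The only tested neighbour of *CD36* was not called, nor was any of the 18 near *CD68*, the 4 near *SCARB1* and the 2 near *CD93*. *STAB1* shares 111 exonic bases with *NT5DC2* on the other strand, and the strand setting of the counting is not given in the sources used here, so that reads in this stretch are uncertain.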

How the data were processed

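RNA-seq of rRNA-depleted total RNA was measured in 6 libraries, 2 per group. The deposited count values were made by the authors with the nf-core/rnaseq pipeline, STAR 2.6.1d (hg38) and featureCounts 2.0.6 and carry no normalization. The methods describe counting over protein-coding exons, yet small nucleolar RNAs such as *SNORA48* have counts. The annotation release and the strand setting are not given in the sources used here. The test was run with edgeR 4.0.16 under R 4.3.3 (filterByExpr, TMM, quasi-likelihood test, condition only, all 6 libraries), with Benjamini-Hochberg adjustment over the 14758 genes tested. The thresholds follow the study. The scripts were tested on simulated data. CPM used TMM-scaled library sizes, and exon lengths came from GENCODE release 44. Intervals and floors cover counting error only, since reads carry no molecular identifiers. P-values set a difference against the spread between replicates, which edgeR estimated mostly from all genes together (51.7 prior degrees of freedom). The 2 replicates per group contribute little to the spread used for a single gene. A permutation of 2 against 2 cannot give a two-sided p below 0.333. Replicates differed by more than sampling noise in each group (chi-square per degree of freedom 2.76, 1.92 and 1.73). The degron acts on the CTCF protein, so that the *CTCF* transcript (2048 and 1875 counts in the control, 2062 and 2051 after depletion) does not measure the depletion.

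The genes and lists were chosen with earlier results of these data known. Named were all 10 genes, at most 4 called genes of each list by size of change, cell type markers, undetected list members, the most abundant list gene and neighbours past both thresholds. *LRP1*, *NT5DC2*, *NDUFA2* and *SNORA48* were named after their values were seen. Alternatives were DESeq2 1.42.0, RLE scaling, other filters and thresholds, a replicate block, the 4 libraries compared, each library left out, and, chosen after seeing the data, scaling by library totals, MANE Select lengths and each 0 h library alone for *CD14*.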

Additional observations from a re-analysis of the deposited data

How the results depend on the processing

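The directions of the 10 genes did not reverse in any comparison: of 368 single-gene values under alternatives, 341 kept their side of the thresholds, 18 lost a call and 9 gained one. The count of genes called lower after CTCF depletion was 4 and became 2 (*CD36* and *MRC1*) with DESeq2, RLE scaling, no filter on low counts and scaling by library totals, 2 to 3 when a library was left out, and 0 with at least 10 counts in every library, where *CD36*, *MRC1*, *MARCO* and *MSR1* were not tested. It became 6 at an adjusted p of 0.05 with no fold threshold. The count called higher after depletion was 0 and became 4 at that setting, and 0 to 1 when a library was left out. With at least 10 counts in every library, 3 of the 10 genes were tested and 2 rather than 9 were called higher against 0 h, in the control and in depleted cells alike.

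No paired design is given. The correlation of the differences between replicates across genes was -0.0194, 0.0109 and -0.0294 for the 3 pairs of groups, and with a replicate block 3 genes were called lower after depletion, as *MARCO* had an adjusted p of 0.0132. Scaling by library totals moved the median log2 fold change of all genes in the conversion from 0.02 to -0.10. The share of *STAB1* in the summed level per kb in the control was 53.5% with all annotated exons, 50.8% with the longest transcript and 45.9% with MANE Select transcripts. Within 100 kb, 1 neighbour rather than 2 was called lower. Of the other scavenger receptors, 2 to 4 were called lower across the alternatives with 13 tested.

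Limits are the 2 replicates per group, the low counts of *MARCO* and *CD14*, and the lack of IAA-treated cells without the degron.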
